A study of Mus musculus with 4 samples.

Results

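The genes described here lie at the distal end of mouse chromosome 7 and were expressed in cultured mammary tumour cells. They were chosen by position and mean level: a start at or above 130000001 on chromosome 7 in GENCODE M21 positions on GRCm38, and a mean of at least 5 FPKM (fragments divided by transcript length in kilobases and scaled by the total of the library) over the 4 libraries. Of 50679 genes in the deposited table, 417 started in the region and 94 of these reached the level. The rule left out 9 of the 94 by name (Adam8, Adam12, Bnip3, Mki67, Irf7, Ifitm3, Pkp3, Dhcr7 and Ccnd1), so 85 members remained. Of the other 323 genes of the region, 26 averaged 1 to 5 FPKM and 162 were listed at 0 in all 4 libraries. The first member was Fgfr2, starting at 130162451, and the last was Tpcn2, starting at 145186524, with 43 members on the plus strand and 42 on the minus strand. All but 2 members were protein coding; the exceptions were Gm45507 and B230206H07Rik. A joint shift of these genes between libraries was known when the region was selected, so the shift is described below without a test.

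The study compared mammary tumour cells with PCNA 211F (211F 1 and 211F 2) with cells with PCNA WT (WT 1 and WT 2), n = 2 for each genotype. PCNA is the ring that clamps DNA polymerases to their template, and 211F is the form of PCNA that the labels name. All 4 libraries came from PyMT tumours, in which the polyoma middle T antigen drives growth, taken from mice at 10 weeks of age, with cells captured by an antibody against the epithelial surface protein EpCAM and plated at a density of 100000. The source is labelled mammary gland, luminal epithelial adenocarcinoma, and the design text speaks of independent biological repeats without saying whether each came from its own animal. Wherever a pair of values is given for a genotype, library 1 comes before library 2.

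The libraries differed in cell type markers as well as in genotype. The median of 12 epithelial markers was 76.1 and 125 FPKM in 211F and 177 and 0.397 FPKM in WT, so that WT 2 nearly lacked the antigen used for capture: Epcam was at 77.3 and 450 FPKM in 211F and 444 and 0.893 FPKM in WT. Summed, the epithelial markers came to 3312 and 3624 FPKM in 211F and 3120 and 7.28 FPKM in WT. Mesenchymal markers (9 genes) summed to 3971 and 56.9 FPKM in 211F and 301 and 2535 FPKM in WT, highest where Epcam was lower. Fibroblast markers (8 genes) summed to 46.0 and 6.27 FPKM in 211F and 12.2 and 1078 FPKM in WT, and smooth muscle markers (6 genes) to 822 and 0.787 FPKM in 211F and 1.13 and 139 FPKM in WT. No gene of the endothelial, lymphoid or adipocyte lists reached a mean of 1 FPKM, and the leukocyte gene Ptprc stayed at or below 0.0180 FPKM. The 7 myeloid markers summed to 7.78 and 14.96 FPKM in 211F and 69.6 and 11.97 FPKM in WT; Cd14 gave most of the WT 1 sum, at 3.55 and 12.6 FPKM in 211F and 67.2 and 7.53 FPKM in WT. Adgre1, which marks macrophages, was at or near 0 in all 4 libraries, and the part of such cells in the results below was not tested. In bulk RNA of this kind, fewer cells of a type and less RNA per cell cannot be told apart. Pcna itself was at 173 and 119 FPKM in 211F and 155 and 147 FPKM in WT. FPKM sums were alike, between 544399 and 564977; read counts were not in the table, and the smallest steps of low values put the depth of 211F 1, 211F 2 and WT 1 at 0.633, 0.543 and 0.581 of that of WT 2, if the values were not rescaled.

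Distal chromosome 7 of the mouse holds a large cluster of imprinted genes, which are transcribed mainly from the copy inherited from one parent. H19, a long noncoding RNA expressed from the maternal copy, and Igf2, a fetal growth factor expressed from the paternal copy, share enhancers and a control region that the insulator protein CTCF binds when unmethylated. A neighbouring domain is governed by the noncoding RNA Kcnq1ot1 and holds Cdkn1c, an inhibitor of cyclin-dependent kinases, and Phlda2, which restrains placental growth. The end of the chromosome carries Ccnd1, Cttn, Ano1, Ppfia1 and Shank2, whose human counterparts lie together in a block that is often amplified in breast carcinoma.

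Promoters of members that recur below are printed here from RefSeq (GRCm38.p6), each from 250 bases before to 50 bases after an annotated start, on the strand of the gene. Ctsd and Cd81 were highest in WT 1, Echs1 was highest in WT 1 and lower in both 211F libraries than in either WT library, Eps8l2 was among the most variable members, Bub3 was the least variable, and the pair of Igf2 starts belongs to the imprinted gene that was high in a single library. RefSeq gives 4 starts for Igf2, of which the 2 with a motif match are shown, and a further Bub3 start, whose window overlaps the printed one and holds 2 GC boxes. Capitals mark matches, on either strand, to the GC box GGGCGG, the CCAAT box CCAAT, the TATA box TATAAA, the AP-1 motif TGANTCA and the E-box CACGTG.
Ctsd chr7:142387778-142388077 (minus strand): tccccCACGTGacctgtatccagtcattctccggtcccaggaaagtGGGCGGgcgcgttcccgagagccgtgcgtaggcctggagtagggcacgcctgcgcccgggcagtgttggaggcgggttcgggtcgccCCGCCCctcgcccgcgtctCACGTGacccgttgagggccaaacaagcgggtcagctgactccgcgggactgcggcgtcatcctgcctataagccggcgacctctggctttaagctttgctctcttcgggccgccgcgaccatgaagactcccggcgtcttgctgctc
Cd81 chr7:143052500-143052799 (plus strand): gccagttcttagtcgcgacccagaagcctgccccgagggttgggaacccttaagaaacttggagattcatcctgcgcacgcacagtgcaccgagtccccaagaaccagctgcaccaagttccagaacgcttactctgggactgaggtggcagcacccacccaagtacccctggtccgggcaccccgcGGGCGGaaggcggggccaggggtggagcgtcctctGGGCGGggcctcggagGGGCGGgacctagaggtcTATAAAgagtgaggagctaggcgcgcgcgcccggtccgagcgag
Echs1 chr7:140116372-140116671 (minus strand): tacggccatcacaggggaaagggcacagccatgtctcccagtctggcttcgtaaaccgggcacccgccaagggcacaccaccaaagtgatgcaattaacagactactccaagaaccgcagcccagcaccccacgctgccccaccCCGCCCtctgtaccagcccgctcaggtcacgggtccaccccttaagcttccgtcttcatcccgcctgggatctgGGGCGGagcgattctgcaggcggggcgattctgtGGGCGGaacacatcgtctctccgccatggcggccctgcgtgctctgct
Eps8l2 chr7:141338752-141339051 (plus strand): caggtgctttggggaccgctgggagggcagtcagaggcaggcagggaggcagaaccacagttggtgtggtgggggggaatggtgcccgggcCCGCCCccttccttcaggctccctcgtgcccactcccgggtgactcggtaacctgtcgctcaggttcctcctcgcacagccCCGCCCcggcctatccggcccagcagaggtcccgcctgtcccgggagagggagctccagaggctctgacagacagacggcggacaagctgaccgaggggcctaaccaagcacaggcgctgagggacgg
Bub3 chr7:131560120-131560419 (plus strand): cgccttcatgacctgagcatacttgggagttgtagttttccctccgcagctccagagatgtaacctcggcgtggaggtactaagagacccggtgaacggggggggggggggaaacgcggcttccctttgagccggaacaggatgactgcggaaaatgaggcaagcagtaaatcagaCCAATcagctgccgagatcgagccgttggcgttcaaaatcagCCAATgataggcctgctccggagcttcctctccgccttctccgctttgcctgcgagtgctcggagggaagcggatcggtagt
Igf2 chr7:142657447-142657746 (minus strand): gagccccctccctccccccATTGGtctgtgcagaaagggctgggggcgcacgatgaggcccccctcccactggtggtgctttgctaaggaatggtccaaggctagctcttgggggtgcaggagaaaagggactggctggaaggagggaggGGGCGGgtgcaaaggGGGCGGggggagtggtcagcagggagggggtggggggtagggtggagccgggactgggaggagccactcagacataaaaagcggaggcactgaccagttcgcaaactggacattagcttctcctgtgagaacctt
Igf2 chr7:142658755-142659054 (minus strand): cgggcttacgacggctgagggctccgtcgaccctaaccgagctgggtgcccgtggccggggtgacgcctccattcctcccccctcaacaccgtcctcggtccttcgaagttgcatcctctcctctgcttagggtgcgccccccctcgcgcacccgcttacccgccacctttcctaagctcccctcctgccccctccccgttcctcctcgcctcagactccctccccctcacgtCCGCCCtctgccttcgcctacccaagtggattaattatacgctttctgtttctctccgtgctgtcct

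RefSeq promoters were found for 73 of the 85 members, 111 promoters in all. A GC box was present in 62.2% of the members' promoters, against 65.8% of 9888 promoters of genes of at least 5 FPKM and 35.7% of all 32851 promoters. The CCAAT box was present in 32.4% of the members' promoters, 37.3% of those of expressed genes and 37.4% of all; the TATA box in 7.21%, 6.77% and 13.6%; and the CACGTG E-box in 6.31%, 10.3% and 7.15%. The AP-1 motif was found in 10.8% of the members' promoters (12 of 111), against 4.98% of those of expressed genes and 7.81% of all. Median GC content was 61.3% in the members' promoters and in those of expressed genes alike, with a median of 20 CpG dinucleotides in the members and 22 in expressed genes. These matches describe letters in the windows, and no binding was measured.

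WT 1 was the highest library for most members and WT 2 the lowest for most, though the same member showed both in fewer cases, and the medians of the 211F libraries lay between. Taking each member's log2(FPKM + 1) minus its mean over the 4 libraries as its deviation, the median deviation of the 85 members was -0.13 in 211F 1, 0.10 in 211F 2, 0.44 in WT 1 and -0.31 in WT 2. The middle 50% of the members ran from 0.05 to 0.72 in WT 1 and from -0.70 to -0.05 in WT 2. The same medians over 622 expressed genes of chromosome 7 before the region were -0.06 in 211F 1, 0.12 in 211F 2, 0.10 in WT 1 and -0.14 in WT 2. Over all 9911 genes of at least 5 FPKM they lay between -0.04 and 0.04. WT 1 held the highest value for 53 members (62.4%), against 20.3% of all genes of at least 5 FPKM and 33.4% of those on the rest of chromosome 7. WT 2 held the lowest value for 47 members (55.3%), against 29.4% of all genes and 40.5% of those on the rest of the chromosome. Both held for 33 members, while 211F 1 was highest for 11, 211F 2 for 15 and WT 2 for 6. The pattern had been seen when the region was chosen, so these counts are not evidence of their own.

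**Figure D1:**
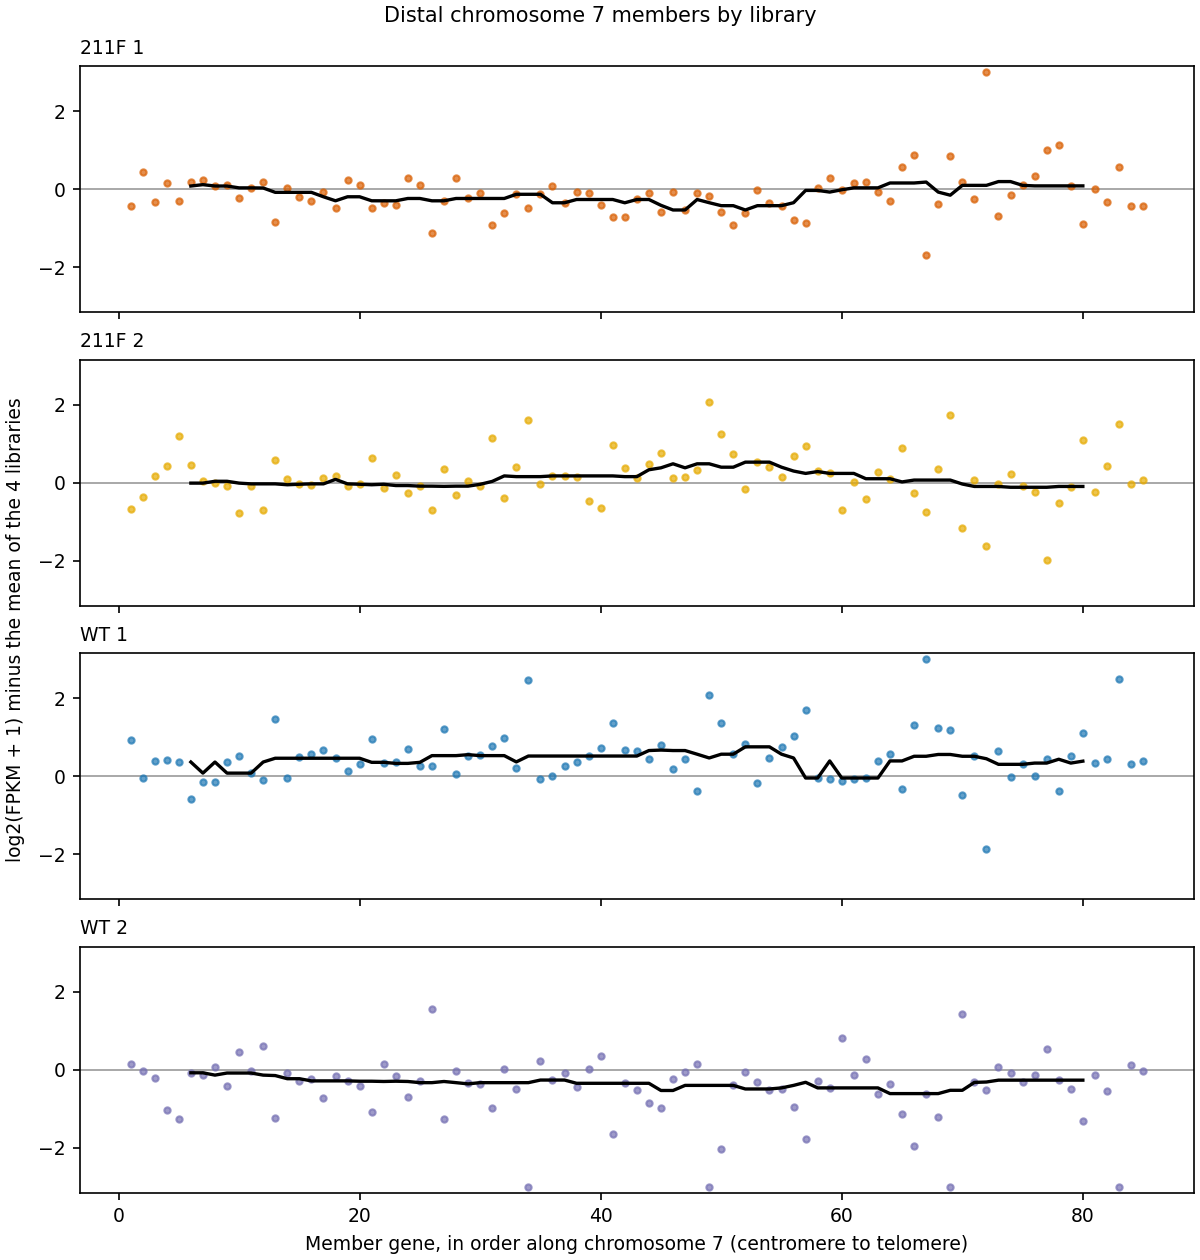
Deviation of each of the 85 members from its mean over the 4 libraries, in log2(FPKM + 1), plotted in chromosomal order with a panel for each library (211F 1, 211F 2, WT 1, WT 2). The black line is the running median of 11 members, and points beyond 3 log2 units (1 in 211F 1, 1 in WT 1 and 4 in WT 2) are drawn at the edge. In WT 1 the line is above 0 in 69 of 75 windows, and in WT 2 it is below 0 throughout.

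**Figure D2:**
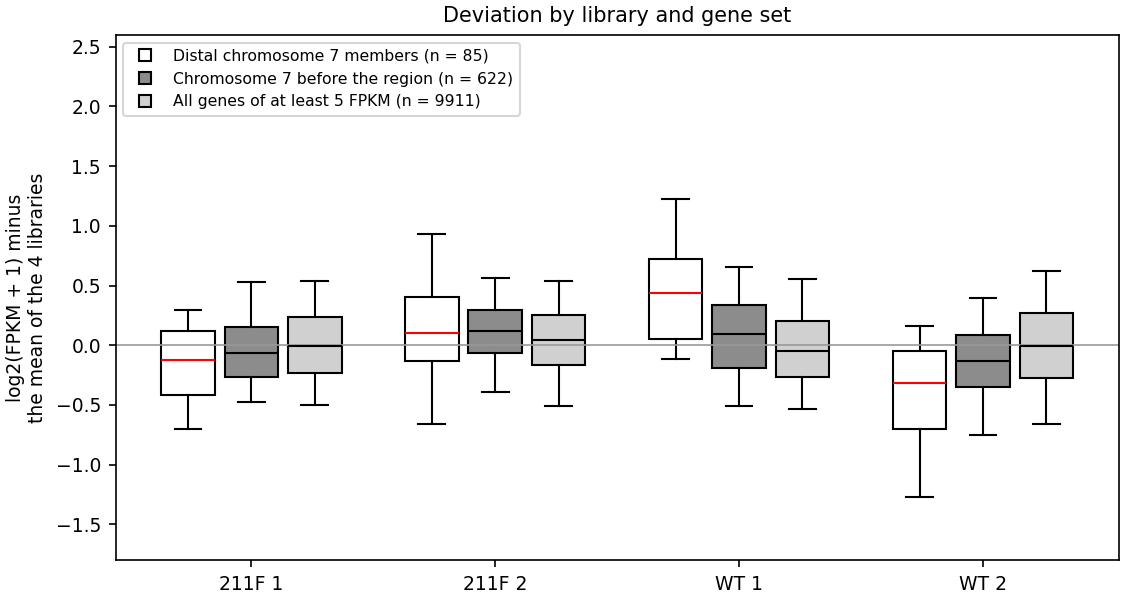
Deviations from the 4-library mean, in log2(FPKM + 1), for the members (white), the expressed genes of chromosome 7 before the region and all genes of at least 5 FPKM, in each library. Boxes show the quartiles and the median; the members' median is 0.44 in WT 1 and -0.31 in WT 2.

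The shift was of modest size for the usual member. Between the WT libraries the median difference WT 1 minus WT 2 was 0.73 log2 units, a ratio of 1.66, and 71 of the 85 members were higher in WT 1. Over chromosome 7 before the region this median was 0.22, and over all genes of at least 5 FPKM it was -0.04. The comparison of 211F 2 with WT 1 does not involve WT 2. Its median difference 211F 2 minus WT 1 was -0.33, and 64 members (75.3%) were lower in 211F 2, against 41.7% of all genes of at least 5 FPKM, whose median was 0.08. These libraries were not matched in markers. Mesenchymal markers summed to 56.9 FPKM in 211F 2 and 301 FPKM in WT 1, and myeloid markers to 14.96 FPKM in 211F 2 and 69.6 FPKM in WT 1. The median 211F 1 minus WT 1 was -0.65, with 63 members lower in 211F 1. Set against WT 2, both 211F libraries were higher, with medians of 0.27 for 211F 1 and 0.37 for 211F 2.

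Many members were, like Epcam, higher in 211F 2 and WT 1 than in 211F 1 and WT 2. Only 8 members (9.41%) had 211F 2 highest and WT 1 second, as Epcam did. In 42 members (49.4%) 211F 2 and WT 1, the libraries richest in Epcam, were both above 211F 1 and WT 2, against 24.4% of all genes of at least 5 FPKM. Of the 12 epithelial markers 7 had this split, but Krt5 and Cldn4 were highest in 211F 1. WT 1 lay above the 4-library mean in all 12 markers and in 66 of the 85 members, against 44.8% of all genes of at least 5 FPKM. WT 2 lay below that mean in all 12 markers. It lay above it in 17 members (20%), against 49.3% of all genes of at least 5 FPKM. Across the 85 members, log2 values of 211F 2 and WT 1 had a Pearson correlation of 0.92, and the other pairs of libraries lay between 0.64 and 0.80. Over all 9911 genes of at least 5 FPKM these were 0.89 and 0.63 to 0.80, nearly the same. The members' range over the 4 libraries exceeded 3 log2 units in 10 members and was under 1 log2 unit in 42 (49.4%), against 65.1% of all genes. Without the 10 members of largest range the medians were -0.12 in 211F 1, 0.07 in 211F 2, 0.38 in WT 1 and -0.27 in WT 2. How far cell type makeup takes part in the shift was not tested.

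The shift in WT 1 was smaller among members that varied little in the other libraries, with a median deviation of 0.35 against 0.44 over all members. In these 54 members, whose other 3 libraries lay within 1 log2 unit of each other, WT 1 exceeded the mean of the others by a median of 0.46 log2 units, a ratio of 1.38, and it was above all of them in 36 (66.7%), against 21.1% of 7101 such genes overall. The middle 50% ran from 0.00 to 0.70. The same median was 0.12 over 459 genes of chromosome 7 before the region and -0.08 over all 7101. For the other libraries the members' medians were -0.12 in 211F 1 (45 members), 0.03 in 211F 2 (47 members) and -0.33 in WT 2 (52 members). This selection was added after the values had been seen.

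**Figure D3:**
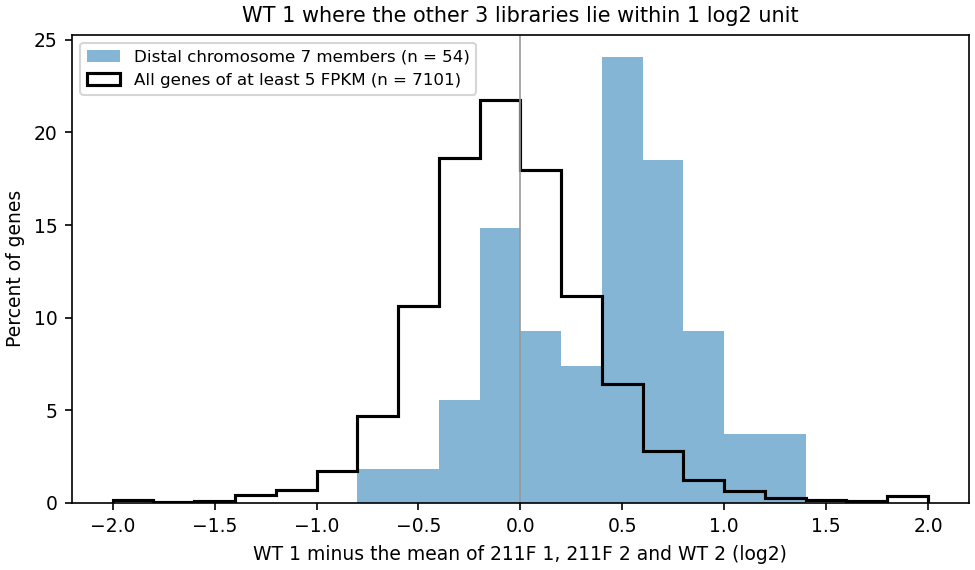
WT 1 minus the mean of the other 3 libraries, in log2(FPKM + 1), for genes whose other libraries lie within 1 log2 unit of each other, as the percent of genes in each bin; values beyond 2 log2 units are drawn in the outermost bins. The 54 members are shifted to the right, with a median of 0.46, against -0.08 for all 7101 genes.

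Along the chromosome the WT 1 medians were higher in the region than before it. In 10-Mb segments that include the genes left out by name, the median deviation in WT 1 was 0.36 from 130 Mb (33 genes) and 0.49 from 140 Mb (61 genes), 0.19 in the segment from 120 Mb (90 genes) and between -0.10 and 0.19 in the 12 segments before that. WT 2 had medians of -0.23 and -0.37 in the last segments and between -0.19 and -0.05 elsewhere on the chromosome. Within the region, the WT 1 median was above 0 in all 15 of the 1-Mb segments that held such genes, from 0.08 at 131 Mb (5 genes) to 0.69 at 137 Mb, where Glrx3 was the only gene. At 131 Mb the WT 1 median was no higher than that of 211F 1 (0.08). The WT 2 median was below 0 in these segments except at 134 Mb (0.14, 1 gene) and 138 Mb (1.55, 3 genes), and at 138 Mb WT 2 was the highest library. Among 196 segments of 10 Mb across the genome with at least 20 such genes, those from 140 and 130 Mb of chromosome 7 ranked 1 and 3 for WT 1. The segment between them in rank, at 120 Mb of chromosome 11 (0.40 in WT 1), was higher still in 211F 2 (0.90), which the chromosome 7 segments were not (0.16 from 140 Mb and -0.03 from 130 Mb). For WT 2 the same chromosome 7 segments ranked 193 and 174. Other segments of chromosome 7 also ranked high for WT 1. Those from 120, 80, 10 and 20 Mb ranked 6, 7, 8 and 9, with medians between 0.16 and 0.19. Whole chromosomes had medians between -0.15 (chromosome 19) and 0.13 (chromosome 7) in WT 1, and between -0.31 (chromosome 18) and 0.38 (chromosome 15) in WT 2.

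**Figure D4:**
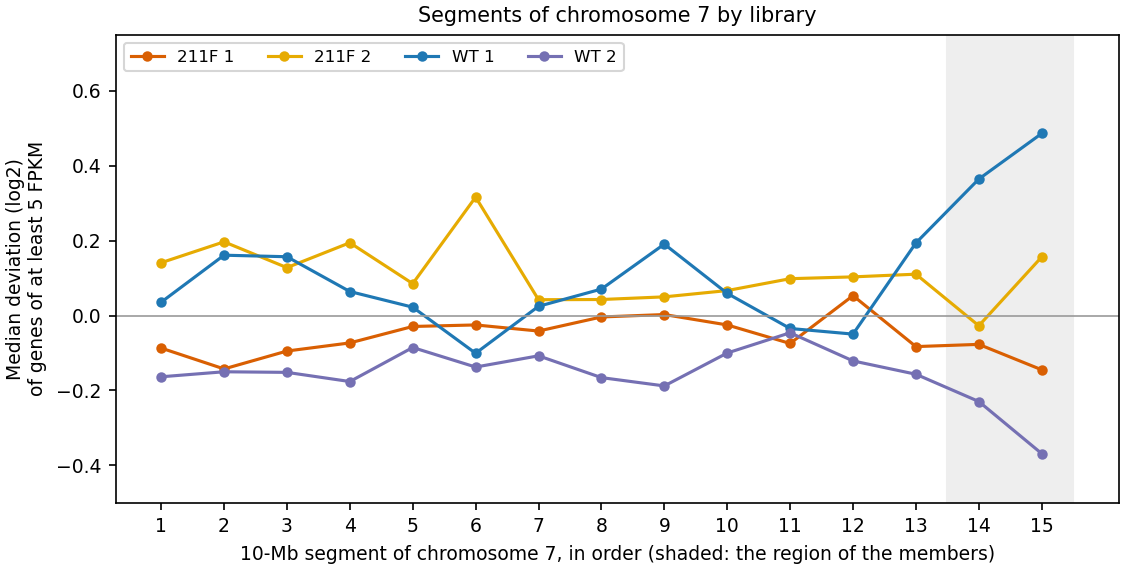
Median deviation from the 4-library mean, in log2(FPKM + 1), of genes of at least 5 FPKM in each 10-Mb segment of chromosome 7, for 211F 1, 211F 2, WT 1 and WT 2; the segments from 130 Mb are shaded. WT 1 reaches 0.36 and 0.49 there, and WT 2 reaches -0.23 and -0.37.

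The shift was not uniform from gene to gene. Running medians over 11 neighbouring members in WT 1 lay between -0.04 and 0.75. A run of 5 neighbours, picked out after its values were seen, was not raised in WT 1: Cd151, Polr2l, Tspan4, Chid1 and Ap2a2 had WT 1 deviations between -0.12 and -0.04, and none was highest in WT 1. Their median in WT 2 was -0.12; Cd151, Polr2l and Chid1 were lowest there, while Tspan4 and Ap2a2 were highest there. The genes on either side were highest in WT 1. Upstream, Cracr2b (a regulator of store-operated calcium entry) was at 3.68 and 15.3 FPKM in 211F and 26.7 and 1.499 FPKM in WT. Downstream, Tollip (an adaptor that dampens Toll-like receptor signalling) was at 35.9 and 46.3 FPKM in 211F and 49.9 and 24.4 FPKM in WT.

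The members' median in WT 1 was above 0 in every class of GC content and among members that share no exons. Median transcript GC content was 52.9% in members, 52.8% on chromosome 7 before the region and 49.7% over all genes of at least 5 FPKM. In 5 equal classes of GC content, from low to high, the members' WT 1 medians were 0.32, 0.27, 0.42, 0.48 and 0.52 (6, 15, 12, 32 and 20 members), and those of all genes lay between -0.13 and 0.01. Exons of 5 members overlapped those of another gene of at least 1 FPKM on the same strand, and exons of 24 did so on the other strand. In the 56 members with neither, the medians were -0.11 in 211F 1, 0.16 in 211F 2, 0.43 in WT 1 and -0.32 in WT 2. Region genes below the level showed a like order: over the 26 genes of 1 to 5 FPKM the medians were -0.11 in 211F 1, 0.09 in 211F 2, 0.35 in WT 1 and -0.26 in WT 2. In the 9 genes left out by name they were -0.14, -0.07, 0.49 and -0.97 in the same order of libraries.

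Between genotypes, no member passed the test. With limma on log2(FPKM + 1), adjusted over 12767 genes of at least 1 FPKM, 0 of 85 members were called, as were 0% of all genes tested, and adjusted p was 0.9999 or more throughout. Limma gave an unadjusted p under 0.05 for 5 members (5.88%), 1 higher and 4 lower in 211F, against 1.89% of all genes tested. The 211F and WT libraries did not overlap for 20 members (23.5%), 9 higher and 11 lower in 211F, against 26.8% of all genes tested, so the members' share was close to the background. The median difference 211F minus WT was 0.03 over the members (45 above 0 and 40 below) and 0.03 over all genes tested. That median was 0.31 without WT 1 and -0.54 without WT 2, since the WT libraries lay on opposite sides of the 211F libraries. With 2 libraries against 2, an exact two-sided permutation test of a single gene cannot go below p = 0.333.

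The members with the smallest unadjusted limma p were mostly lower in 211F, and each had an adjusted p of 0.9999 over all genes tested. Ifitm2, an interferon-induced membrane protein that restricts virus entry, was at 132 and 111 FPKM in 211F and 291 and 223 FPKM in WT. Its difference 211F minus WT was -1.07 ± 0.26 log2 units (SE; limma unadjusted p = 0.0138). It has close relatives in the same cluster, with which reads could be shared. Dusp8, a phosphatase that switches off stress-activated MAP kinases, was at 12.5 and 15.9 FPKM in 211F and 6.28 and 3.12 FPKM in WT, a difference of 1.46 ± 0.43 (limma unadjusted p = 0.0263). It went against the shift in WT 1, with a deviation of -0.32 there, but was lowest in WT 2 (-1.14), as most members were.

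Acadsb, a mitochondrial dehydrogenase for short branched-chain acyl-CoA, was at 25.6 and 17.1 FPKM in 211F and 43.6 and 41.7 FPKM in WT, a difference of -0.99 ± 0.29 (limma unadjusted p = 0.0282). Fgfr2, a receptor for fibroblast growth factors, was at 10.7 and 8.97 FPKM in 211F and 29.1 and 16.6 FPKM in WT, a difference of -1.09 ± 0.38 (limma unadjusted p = 0.0451). In both genes all 211F values lay below all WT values, and Fgfr2 shares annotated exons with Ctbp2 on the same strand. Gm45507 was at 1.27 and 2.04 FPKM in 211F and 4.94 and 13.4 FPKM in WT, a difference of -1.82 ± 0.59 (limma unadjusted p = 0.0371), and its exons overlap those of Bnip3 on the other strand. Echs1, the enoyl-CoA hydratase of mitochondrial fatty acid oxidation, was at 41.8 and 48.4 FPKM in 211F and 126 and 64.4 FPKM in WT, a difference of -0.99 ± 0.40 (limma unadjusted p = 0.0689). Its values did not overlap between the genotypes either, with WT 1 far above the rest, and its exons overlap those of Paox.

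Igf2, the fetal growth factor, was high in 211F 1 alone, with the largest deviation upward of any member. It was at 66.2 and 0.344 FPKM in 211F and 0.139 and 1.88 FPKM in WT, a deviation of 4.02 in 211F 1. Its difference 211F minus WT was 2.39 ± 2.08 (limma unadjusted p = 0.314, adjusted p = 0.9999), and it was -0.43 without 211F 1. H19 (chromosome 7, 142575529 to 142578143, minus strand) missed the level of the members with a mean of 1.49 FPKM, and was also highest in 211F 1, at 4.60 and 0.0401 FPKM in 211F and 1.33 FPKM in WT 1, and was listed at 0 in WT 2. Igf2 (142650766 to 142666816, minus strand) lies next to it. 211F 1 was also the library with the highest smooth muscle marker levels, Acta2 being at 442 and 0.0739 FPKM in 211F and 0.600 and 95.8 FPKM in WT, and the part of those cells in the Igf2 value was not tested.

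Of 24 listed imprinted genes of the distal cluster, 8 were members, 10 reached the 1 FPKM needed for the test and none was called, with 7 differences above 0 and 3 below. FPKM values do not show from which parental copy a gene was transcribed, so imprinting of the listed genes in these cells was not measured. Among the 8 members the WT 1 deviation was above 0 in 5 and the WT 2 deviation below 0 in 6; whether these 8 differ from the other members was not tested. Their median deviations were 0.22 in 211F 1, -0.17 in 211F 2, 0.16 in WT 1 and -0.20 in WT 2, and 4 were highest in 211F 1, 1 in 211F 2 and 3 in WT 1. Cd81, a tetraspanin of the cell surface, was highest in WT 1 but lowest in 211F 1, at 120 and 188 FPKM in 211F and 299 and 202 FPKM in WT. Nap1l4, a histone chaperone, was at 89.9 and 78.4 FPKM in 211F and 104 and 67.1 FPKM in WT, and Osbpl5, a lipid transfer protein of the endoplasmic reticulum, at 31.1 and 26.9 FPKM in 211F and 42.5 and 20.3 FPKM in WT. These 3 were the imprinted members highest in WT 1, and Nap1l4 and Osbpl5 were lowest in WT 2 as well.

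Other imprinted members were flat or highest in 211F 1. Tssc4, which works in assembly of the spliceosome, varied little, at 34.8 and 45.6 FPKM in 211F and 38.4 and 36.7 FPKM in WT, and Cars, the cysteinyl-tRNA synthetase, was at 57.1 and 38.0 FPKM in 211F and 44.9 and 40.9 FPKM in WT. The decoy receptors Tnfrsf22 and Tnfrsf23, neighbours that bind the death ligand TRAIL, did not move alike. Tnfrsf22 was at 14.8 and 0.989 FPKM in 211F and 9.74 and 10.3 FPKM in WT, with 211F 2 as the low library. Tnfrsf23 was at 34.7 and 10.4 FPKM in 211F and 11.6 and 12.5 FPKM in WT, with 211F 1 as the high one. The differences 211F minus WT were no larger than their errors, -0.98 ± 1.10 for Tnfrsf22 and 0.63 ± 0.63 for Tnfrsf23 (SE, limma).

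The remaining genes of the cluster were low. Phlda2 was at 2.89 and 3.57 FPKM in 211F and 2.46 FPKM in WT 1, and was listed at 0 in WT 2. Cdkn1c was at 0.173 and 0.0839 FPKM in 211F and 0.0616 and 2.57 FPKM in WT, so the only clear value was in WT 2. Kcnq1ot1 was at 0.130 and 0.122 FPKM in 211F and 0.183 and 0.140 FPKM in WT. Slc22a18, an organic cation transporter, lay between 0.199 and 0.573 FPKM, and Ins2, Nctc1, Mir675 and Mir483 were listed at 0 in all 4 libraries.

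**Figure D5:**
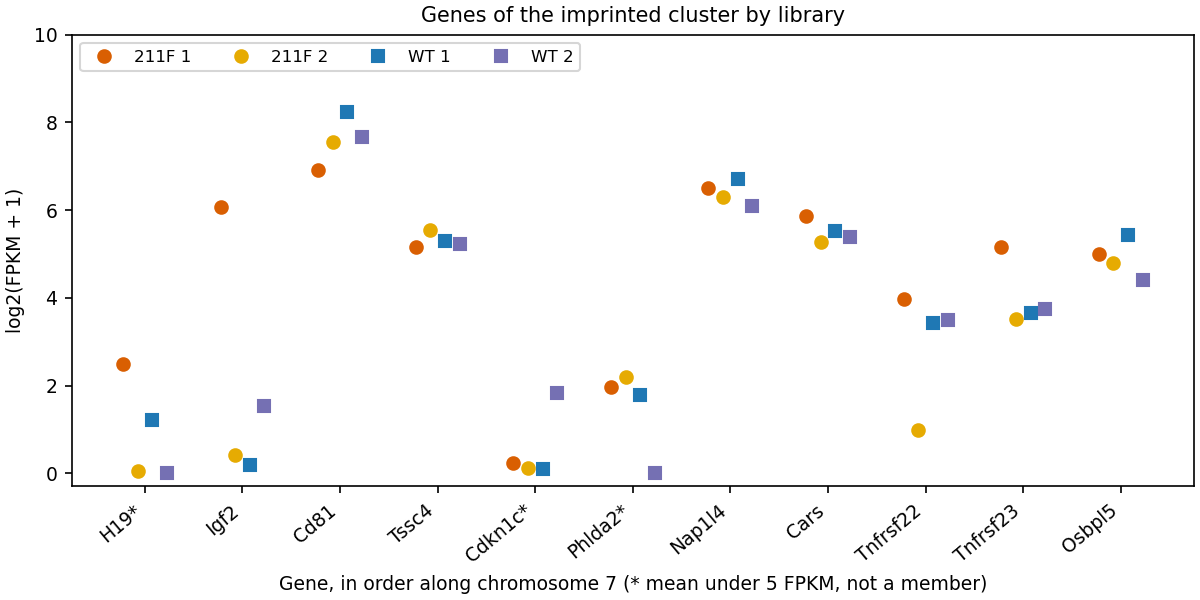
Level of 11 genes of the distal imprinted cluster in log2(FPKM + 1), each point a library (211F 1, 211F 2, WT 1, WT 2); an asterisk marks genes below the members' level. Igf2 is high in 211F 1 only (66.2 FPKM), while Cd81 and Nap1l4 are highest in WT 1.

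Imprinted genes nearer the centromere of chromosome 7 were also uncalled (0 of 6 tested, of 13 listed). Snrpn, a spliceosome protein, was at 10.3 and 26.2 FPKM in 211F and 17.6 and 1.94 FPKM in WT, and Peg3, a zinc finger protein, at 3.37 and 0.0845 FPKM in 211F and 4.79 and 0.752 FPKM in WT. Snrpn and Snurf were highest in 211F 2 and lowest in WT 2, while Atp10a and Ube3a were highest in 211F 2 and lowest in WT 1. Peg3 was highest in WT 1 and lowest in 211F 2. Inpp5f was at 8.82 and 9.12 FPKM in 211F and 11.1 and 8.34 FPKM in WT. It was highest in WT 1 and lowest in WT 2, as 33 distal members were. Of 17 factors that maintain or read imprints, 14 were tested and none was called, with 9 differences above 0 and 5 below. Their levels were close in all libraries for Ctcf, at 54.2 and 58.1 FPKM in 211F and 53.8 and 64.3 FPKM in WT, and for Trim28, a corepressor that protects imprints, at 236 and 223 FPKM in 211F and 235 and 223 FPKM in WT. Zfp57, the zinc finger protein that recruits Trim28 to imprinted regions, was at 6.77 FPKM in 211F 1, listed at 0 in 211F 2, and at 0.0113 and 11.9 FPKM in WT.

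The pathway of Igf2 was represented by 18 listed genes, of which 17 were tested and none was called (7 differences above 0, 10 below). Igf1r, the receptor that signals for Igf2, was at 23.2 and 14.97 FPKM in 211F and 15.7 and 21.2 FPKM in WT. Igf2r, which clears Igf2 from the surface, was at 20.7 and 37.9 FPKM in 211F and 26.8 and 30.9 FPKM in WT. Both receptors overlapped between genotypes and varied far less than the ligand. Among binding proteins, Igfbp4 was high in the same library as Igf2, at 212 and 0.139 FPKM in 211F and 1.06 and 3.22 FPKM in WT, whereas Igfbp6 was at 0.111 and 0.131 FPKM in 211F and 0.119 and 243 FPKM in WT. Htra1, a member that encodes a secreted protease able to cut IGF-binding proteins, was at 289 and 350 FPKM in 211F and 169 and 240 FPKM in WT. It was lowest in WT 1, against the run of the region, and its difference 211F minus WT was 0.66 ± 0.29 (limma unadjusted p = 0.083).

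By role, the members highest in WT 1 came from many unrelated groups, described here by counts alone; a gene can stand in more than 1 group, and no gene of these groups was called. In the block at the end of the chromosome all 6 members (LTO1, Ano1, Ppfia1, Cttn, Shank2 and Tpcn2) were highest in WT 1, with a median deviation there of 0.41. Ccnd1, cyclin D1, which lies in the same block and is left out of the members by name, was instead highest in 211F 1, at 277 and 102 FPKM in 211F and 206.5 and 73.2 FPKM in WT, and Mrgprf, under the level, was at 0.119 and 0.0168 FPKM in 211F and 0.1005 and 5.05 FPKM in WT. Cttn, the actin-binding protein cortactin, was at 213 and 181 FPKM in 211F and 267 and 193 FPKM in WT. Ppfia1, a liprin of focal adhesions, was at 50.2 and 86.1 FPKM in 211F and 86.4 and 43.7 FPKM in WT. WT 1 exceeded 211F 2 by little in Ppfia1 and by more in Cttn, and Ano1, a calcium-activated chloride channel, had the largest range of any member. It was at 65.3 and 126 FPKM in 211F and 248 and 0.903 FPKM in WT.

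All 8 members with roles in mitosis or genome upkeep were highest in WT 1, with a median deviation there of 0.35. Nsmce4a, a subunit of the SMC5/6 complex, was at 42.1 and 59.9 FPKM in 211F and 69.5 and 45.6 FPKM in WT. Tubgcp2, of the gamma-tubulin complex, was at 25.2 and 30.6 FPKM in 211F and 43.5 and 23.5 FPKM in WT, and Bccip, which binds Brca2 and p21, at 55.1 and 49.3 FPKM in 211F and 63.6 and 38.0 FPKM in WT. Bub3, of the spindle checkpoint, was the flattest of all members, at 78.8 and 72.6 FPKM in 211F and 81.2 and 74.6 FPKM in WT, so its place in that count rests on a few percent. Other flat members were Eef1akmt2, a lysine methyltransferase, at 20.2 and 21.02 FPKM in 211F and 19.2 and 18.6 FPKM in WT, Pstk, a kinase in selenocysteine synthesis, at 19.5 and 18.2 FPKM in 211F and 16.4 and 19.4 FPKM in WT, Chid1, and Bet1l, a Golgi SNARE, none of them highest in WT 1.

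Among 13 members of transcription and RNA metabolism, 9 were highest in WT 1 (median deviation 0.44). Ctbp2, a corepressor, was at 35.5 and 40.8 FPKM in 211F and 60.5 and 22.3 FPKM in WT, and Phrf1, a ubiquitin ligase that binds RNA polymerase II, at 32.6 and 37.2 FPKM in 211F and 39.3 and 29.0 FPKM in WT. Polr2l, a subunit shared by the RNA polymerases, was not raised in WT 1, at 11.7 and 11.3 FPKM in 211F and 8.96 and 6.54 FPKM in WT. Rplp2, an acidic protein of the ribosomal stalk, was among the most abundant members, at 452 and 673 FPKM in 211F and 1018 and 429 FPKM in WT. It has close copies elsewhere in the genome, and sharing of reads with them could not be checked in FPKM values.

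Of 10 members in mitochondria and metabolism, 6 were highest in WT 1 (median deviation 0.52). Glrx3, a glutaredoxin that carries iron-sulphur clusters, was at 114 and 77.7 FPKM in 211F and 152 and 57.4 FPKM in WT, and Mrpl23, of the mitochondrial ribosome, at 23.1 and 29.3 FPKM in 211F and 40.2 and 22.1 FPKM in WT. Taldo1, transaldolase of the pentose phosphate pathway, was highest in 211F 2, at 74.1 and 233 FPKM in 211F and 207 and 105 FPKM in WT. Oat, ornithine aminotransferase, was highest in WT 2 and lowest in 211F 2, at 49.9 and 26.3 FPKM in 211F and 40.2 and 66.5 FPKM in WT.

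Of 9 lysosomal and endosomal members, 6 were highest in WT 1 (median deviation 0.39). Ctsd, the lysosomal protease cathepsin D, had the highest mean of those named, at 420 and 696 FPKM in 211F and 1272 and 235 FPKM in WT. Its annotated exons overlap those of Gm49369, which was at 0.249 and 1.37 FPKM in 211F and 31.6 and 1.59 FPKM in WT. Tpcn2, a channel of endolysosomes, was at 3.77 and 5.76 FPKM in 211F and 7.42 and 5.34 FPKM in WT, while Ap2a2, of the clathrin adaptor AP-2, was highest in WT 2, at 64.1 and 41.9 FPKM in 211F and 54.5 and 68.1 FPKM in WT. Of 5 proteasome and ubiquitin members, 4 were highest in WT 1, among them Psmd13, a lid subunit, at 119 and 140 FPKM in 211F and 162 and 91.1 FPKM in WT.

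A list of mixed roles held 9 members: Hras, Rassf7, Dock1, Ric8a, Inpp5a, Ptpre, Tollip, Rnh1 and Lsp1. Of these, 5 were highest in WT 1 (median deviation 0.36). Hras, a RAS GTPase, was at 45.1 and 67.6 FPKM in 211F and 66.0 and 26.1 FPKM in WT, level between 211F 2 and WT 1. Rnh1, the ribonuclease inhibitor, was at 42.8 and 56.5 FPKM in 211F and 81.8 and 35.3 FPKM in WT, and Rassf7, with a RAS association domain, at 20.01 and 51.7 FPKM in 211F and 53.8 and 14.8 FPKM in WT. Lsp1, an actin-binding protein known from leukocytes, was instead highest in WT 2, at 4.74 and 1.24 FPKM in 211F and 2.61 and 12.5 FPKM in WT. The 3 tetraspanins were split: Cd81 was highest in WT 1, Cd151 in 211F 2 (132 and 158 FPKM in 211F and 124 and 104 FPKM in WT), and Tspan4 in WT 2 (53.8 and 33.2 FPKM in 211F and 49.8 and 96.7 FPKM in WT).

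The most variable members after Ano1 had their lowest level in WT 2, as Epcam did, except Igf2 and Gm49369. Eps8l2, of an actin regulator family, was at 14.4 and 71.4 FPKM in 211F and 72.0 and 0.0880 FPKM in WT. Urah, a hydrolase of uric acid breakdown, was at 9.84 and 44.9 FPKM in 211F and 82.9 and 0.270 FPKM in WT, and Syt8, a synaptotagmin, at 26.2 and 49.2 FPKM in 211F and 33.5 and 0.110 FPKM in WT. In these 3 the 211F 1 value also lay below that of 211F 2, as it did for Epcam. Ifitm10 was at 12.7 and 5.17 FPKM in 211F and 17.6 and 0.934 FPKM in WT, B4galnt4, a glycosyltransferase, at 2.83 and 11.2 FPKM in 211F and 15.02 and 0.999 FPKM in WT, and B230206H07Rik at 1.77 and 8.93 FPKM in 211F and 9.70 and 0.0153 FPKM in WT. Exons of Ifitm10 overlap those of Gm49369 on the same strand, and exons of B230206H07Rik overlap those of Eps8l2 on the other strand.

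At the edges of the rule, the members nearest the level were B230206H07Rik, with a mean of 5.10 FPKM, and Lsp1 at 5.27 FPKM, and the genes just under it were Gm4459 at 4.79 FPKM and Fadd, the adaptor of death receptors, at 4.77 FPKM. Fadd was at 4.60 and 4.87 FPKM in 211F and 6.12 and 3.49 FPKM in WT, the same order as its neighbours Cttn and Ppfia1 in having WT 1 highest. By position, the first members were Fgfr2 and Ate1, an arginyl-tRNA transferase, at 21.99 and 12.3 FPKM in 211F and 15.6 and 15.6 FPKM in WT. The nearest genes of at least 5 FPKM before the region were Wdr11 (start 129591863), at 12.9 and 19 FPKM in 211F and 18.9 and 13.4 FPKM in WT, and Sec23ip (start 128744943), at 23.9 and 28.7 FPKM in 211F and 21.2 and 26.5 FPKM in WT. Neither of these was highest in WT 1, though in Wdr11 WT 1 was nearly level with 211F 2, and both lay above 211F 1 and WT 2.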

How the data were processed

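RNA was measured in 4 libraries, 2 of PCNA 211F and 2 of PCNA WT tumour cells, made with a strand-specific kit per the labels' protocols. The authors deposited 1 table of FPKM values for 50679 Ensembl genes. The submitters' processing notes name TopHat2 2.0.13, DESeq2 and GRCm38 without a role, and the sources used here do not give which program computed FPKM or how it treated strand. The table holds no counts, so depth was read only from the steps of low values in 1971 genes. Of the 311 to 342 values used in each library, 95.7% to 96.5% lay within 0.1 of a whole fragment. On that scale 3 fragments in 1 kb equal 0.0492 to 0.0906 FPKM, and lower levels are read as close to 0.

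Positions, exons, transcript length and GC content came from GENCODE M21 (GRCm38), and 310 identifiers had no position there. Promoters came from RefSeq. Values were analysed as log2(FPKM + 1), which understates changes of low genes. The test covered the 12767 genes averaging 1 FPKM or more and was run with limma 3.58.1 in R 4.3.3, two-sided, with an intensity trend and Benjamini-Hochberg adjustment at 0.05; p-values measure only the spread between these libraries. The procedure was tested on simulated data with independent noise. That noise was smaller than the spread that limma estimated for most members, so the simulation does not show how the test behaves for them. Deviations are from the 4-library mean of a gene, and shared exons were counted against genes of at least 1 FPKM.

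The members and gene lists were chosen with earlier results of these data known. The genes named are the imprinted genes, the 10 members of largest and 5 of smallest range, the 6 of smallest p, up to 6 examples by mean in each role list, the genes nearest the thresholds, and Pcna and Epcam; other genes were named after their values were seen. Alternatives were another pseudocount, filter, scaling, variance prior, replicate block, member level, region start, GC centring and leaving out each library.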

Additional observations from a re-analysis of the deposited data

How the results depend on the processing

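No gene and no member was called under any of the 12 alternative fits, where the smallest adjusted limma p was 0.56. At an unadjusted p under 0.05, 241 genes became 745 without the filter and 221 to 836 on leaving out 1 library, the most without WT 1; for members, 5 became 2 to 7. With the replicate number as a block, 142 genes and 2 members passed that p; the labels do not say that the numbers pair samples, and deviations of same-numbered libraries had a correlation of -0.47 across genes. The 20 members without overlap became 14 to 42 under other settings, with 14 of 63 in a region starting 5 Mb later and 42 of 156 in a region starting 5 Mb earlier. On leaving out 1 library the count was 39 to 66, and separation is easier with fewer samples. The share of all genes tested (26.8%) was taken with all 4 libraries only. The counts with a library left out therefore have no background, and no conclusion is drawn from them. The median difference over the members, 0.03, lay between -0.04 and 0.04 under other settings, and between -0.54 and 0.31 when a library was left out. The members' median deviation lay between 0.33 and 0.47 in WT 1, -0.35 and -0.22 in WT 2, -0.15 and -0.07 in 211F 1 and 0.02 and 0.14 in 211F 2 over 13 alternatives each. Changes of the filter, counted among these, could not alter the medians, since every member averages at least 5 FPKM. Leaving out a library was not among them. Leaving out a library turned the difference of Igf2 (2.39), which ran from -0.43 without 211F 1 to 5.21, of Epcam (2.69), from -1.24 without WT 2 to 6.63, and of Pcna (-0.07), from -0.34 to 0.20 without 211F 2. The cause was not tested. Depth limits what can be said of genes near 0, among them H19 in 211F 2 and WT 2.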
